A study of Mus musculus with 24 samples.

Results

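The retinal pigment epithelium (RPE) of wild type mice was compared between CT10, late in the subjective day, and CT1, just after subjective dawn. The comparison rests on 6 of the 24 samples of the series, the wild type RNA-seq libraries labelled with these circadian times, 3 at CT10 and 3 at CT1. All came from male mice 6 weeks old of the strain labelled C57BL/6/J x 129 SvEvBrd. The layer was cut from snap-frozen eyes by laser capture, and each library held 1 eye except replicate 2 of CT1, which pooled 2 eyes. The other samples were wild type libraries of CT19 and CT22 and libraries of mice labelled Per1-/-Per2Brdm1 at CT10, CT1, CT19 and CT22. Those mice carry a disrupted Per1 gene and a Per2 allele that lacks part of its coding sequence, with the same sex, age and strain labels, and 1 library at CT10 and 1 at CT1 pooled 2 eyes. Whether each library stands for its own animal is not in the labels, and the p-values cover library-to-library spread.

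The RPE is a single layer of pigmented cells behind the photoreceptors that engulfs their shed outer segments, recycles retinoid and moves water, ions and nutrients between retina and choroid. Outer segment uptake peaks shortly after dawn. The circadian clock runs in these cells as a feedback loop. BMAL1 (gene Arntl) pairs with CLOCK or NPAS2 and activates genes with E-boxes, among them the Period and Cryptochrome repressors that then shut the pair off. A further loop joins the REV-ERB and ROR receptors, which repress and activate Arntl, and a D-box arm sets the activators DBP, TEF and HLF against the repressor NFIL3.

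Total counts ran from 20317648 to 22585896 per library at CT10 and from 16723096 to 24324137 at CT1. All 16 RPE markers were detected in both groups, and their summed level was 44410 to 56619 CPM (counts scaled to library size, with TMM factors) at CT10 and 37532 to 46766 CPM at CT1. None of these 16 passed the test of the time difference. Markers of neighbouring cells were present too, and several moved with time. The 20 rod markers summed to 29257, 38897 and 46896 CPM at CT10, against 91867, 72375 and 65014 CPM at CT1. The groups did not overlap, and each of 19 rod markers was lower in every CT10 library than in every CT1 library. The 9 cone markers summed to 129 to 151 CPM at CT10 and 266 to 433 CPM at CT1. The 17 inner retina markers summed to 147 to 197 CPM at CT10 and 231 to 484 CPM at CT1, with the highest sum in the pooled CT1 replicate 2. The 7 skeletal muscle markers summed to 3.15 to 15.0 CPM at CT10, against 505 CPM in CT1 replicate 1 and 12.3 and 19.5 CPM in CT1 replicates 2 and 3. The 6 melanocyte markers summed to 2116 to 2520 CPM at CT10 and 2937 to 3589 CPM at CT1, and none of them passed. Dct, which is in this list, is also in the melanin list of RPE function below. The sum can therefore not be assigned to melanocytes alone. Sums of the Muller glia, endothelium, mural, fibroblast, immune and blood lists overlapped between times. No marker of the rod, cone, inner retina, muscle and melanocyte lists was at 0 in all 3 libraries of either group. In bulk RNA, fewer cells of a type and less RNA per cell cannot be told apart. Their part in the results below was not tested. Values from a fit with the rod score of each library as a covariate are given for the main results. Since the rod sums of the 2 times do not overlap, that fit cannot fully separate rod level from time in this comparison. The cause of a call lost in it was not tested. For the genotype difference, only the count of genes is given from that fit.

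**Figure D1:**
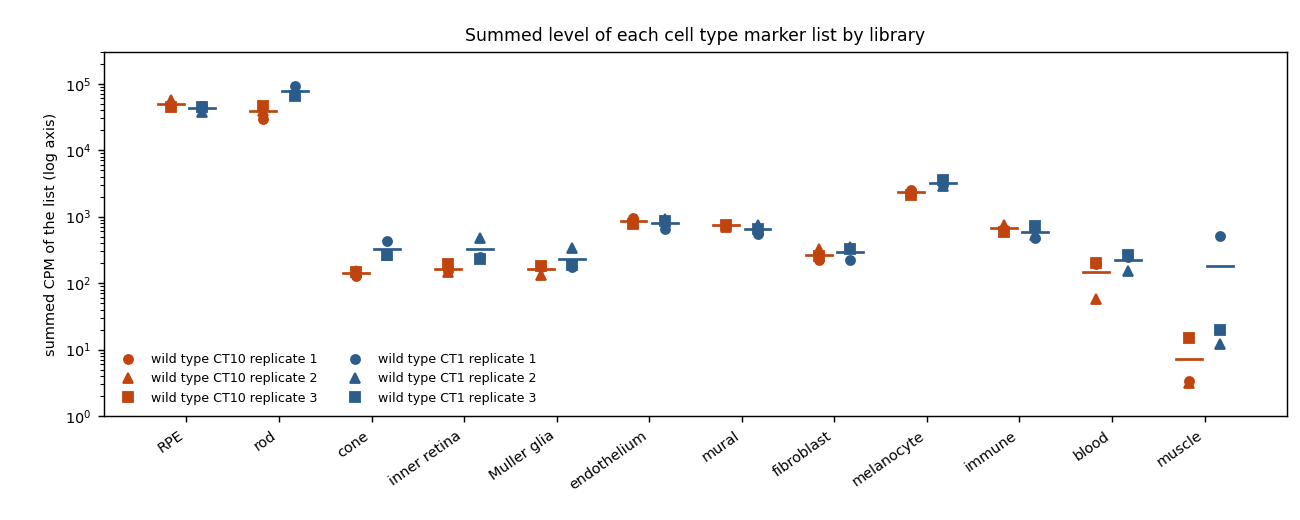
Summed CPM of each cell type marker list (log axis) in the 3 wild type CT10 libraries, left, and the 3 CT1 libraries, right; symbols mark the replicate and bars the mean. The rod and cone sums of the CT10 libraries lie below those of all CT1 libraries, and the muscle sum stands apart in CT1 replicate 1.

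Between CT10 and CT1, 701 of 20275 genes tested passed in edgeR's quasi-likelihood test (Benjamini-Hochberg adjusted p below 0.05), which is 3.46%. Of these, 250 genes (1.23%) were higher and 451 (2.22%) lower at CT10. Under RLE in place of TMM scaling, 295 were higher and 270 lower of 565. The median change of all genes was log2 -0.05, and log2 0.02 under RLE. The count depended on single libraries. It was 37 without CT10 replicate 1, 293 without CT10 replicate 2, 101 without CT10 replicate 3, 39 without CT1 replicate 1, 53 without CT1 replicate 2 and 759 without CT1 replicate 3. In the fit with the rod covariate, 42 genes passed, 28 of them among the 701. Of the 701, 20 genes passed in each of the 6 fits that left out 1 wild type library, and 14 of these were higher and 6 lower at CT10. Protein-coding genes made up 207 of the 250 higher and 431 of the 451 lower genes, against 15195 of the 20275 tested.

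**Figure D2:**
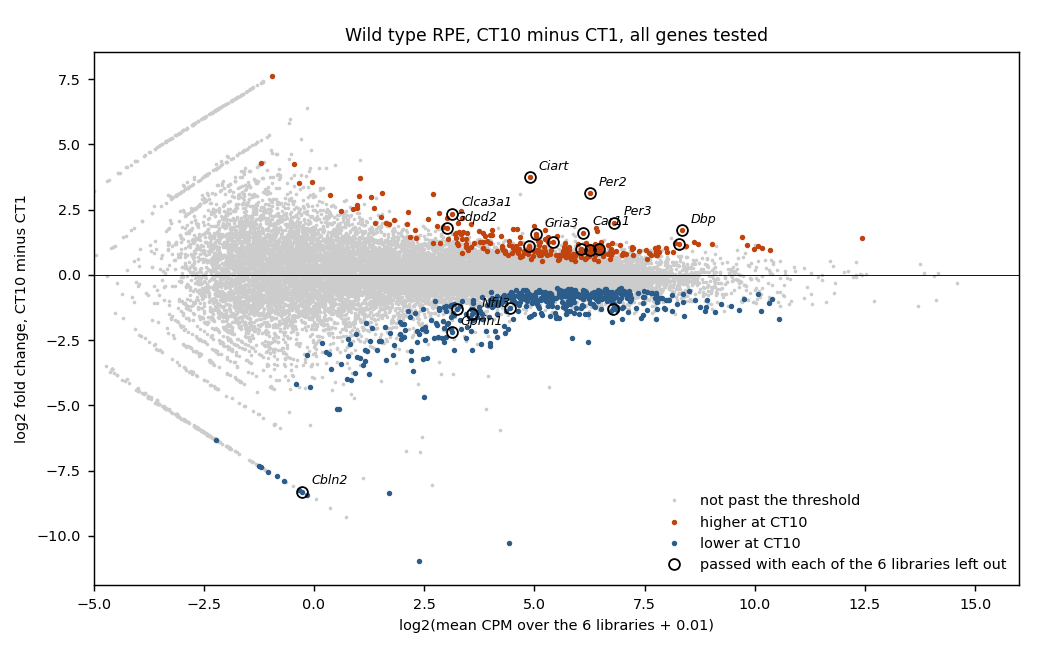
Log2 fold change, CT10 minus CT1, against log2 mean CPM over the 6 libraries for all 20275 genes tested. Coloured points passed the test, 250 higher and 451 lower at CT10, and circles mark the 20 genes that passed with each of the 6 libraries left out in turn.

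The clock genes driven through E-boxes and D-boxes stood high at CT10. Of the 15 tested, 7 rose and none fell, against 1.23% of all genes that rose, and their median change was log2 0.76, against log2 -0.05 for all genes. In 11 of the 15, every CT10 library lay above every CT1 library, against 12.5% of all genes (29.0% did not overlap in either direction). Ciart, Per2, Per3, Dbp and Tef passed in every fit without 1 wild type library and also in the fit with the rod covariate.

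Ciart, which encodes a repressor of BMAL1 and CLOCK (ENSMUSG00000038550, GRCm38 chromosome 3, 95878503 to 95882251, minus strand), had 79.9, 36.5 and 49.4 CPM at CT10, against 2.102, 3.17 and 6.97 CPM at CT1. Its lowest CT10 library was well above its highest CT1 library. The change was log2 3.74 (SE 0.42), a 13.4-fold rise, with an adjusted p of 6.19e-05 in edgeR's quasi-likelihood test. Per2, a repressor of the same pair (chromosome 1, 91415982 to 91459324, minus strand; ENSMUSG00000055866), had 158, 92.3 and 160 CPM at CT10, against 10.2, 14.5 and 21.9 CPM at CT1. It rose by log2 3.14 (SE 0.33), or 8.79-fold, with an edgeR adjusted p of 5.05e-05, the groups again far apart. Per3, a related Period gene, was at 175, 163 and 203 CPM at CT10, against 39.0, 37.4 and 58.5 CPM at CT1. It rose by log2 2.00 (SE 0.27; edgeR adjusted p = 0.000306).

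Per1, the remaining Period gene, was at 186, 91.1 and 115.1 CPM at CT10, against 40.9, 45.0 and 34.8 CPM at CT1. Its rise of log2 1.70 (SE 0.33; edgeR adjusted p = 0.0123) passed in 3 of the 6 fits without 1 library and missed most widely without CT10 replicate 1 (adjusted p = 0.0946). Its change was log2 1.89 in the fit with the rod covariate (adjusted p = 0.0702). The D-box activator gene Dbp was at 574, 462 and 458 CPM at CT10, against 119.8, 130.7 and 204 CPM at CT1. It rose by log2 1.71 (SE 0.21; edgeR adjusted p = 0.000146). Its relative Tef was at 434, 395 and 456 CPM at CT10, against 171, 177 and 222 CPM at CT1, and rose by log2 1.17 (SE 0.16; edgeR adjusted p = 0.00051). The groups of both activators were separate. Nr1d2, which encodes REV-ERB beta, was at 138, 123.5 and 142 CPM at CT10, against 80.1, 78.2 and 80.7 CPM at CT1. Its rise of log2 0.76 (SE 0.15; edgeR adjusted p = 0.0123) passed in 3 of the 6 fits without 1 library and had an adjusted p of 0.0504 with the rod score as a covariate.

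The other 8 genes of this arm did not pass. Nr1d1, which encodes REV-ERB alpha, was at 195, 169 and 181 CPM at CT10, against 166, 169 and 161 CPM at CT1, a difference of log2 0.14 (edgeR adjusted p = 0.646). Cry1 was at 28.5, 32.7 and 31.1 CPM at CT10, against 39.0, 38.2 and 26.6 CPM at CT1 (log2 -0.17), and its sign turned to log2 0.32 with the rod score as a covariate. Cry2 was at 99.7, 74.5 and 77.6 CPM at CT10, against 46.6, 71.7 and 51.0 CPM at CT1. Its difference of log2 0.57 missed the threshold at an edgeR adjusted p of 0.0607 and passed under RLE scaling. Both genes encode Cryptochrome repressors. The cell cycle kinase gene Wee1 had log2 1.03, the PAR bZIP factor Hlf log2 0.30, the repressor genes Bhlhe40 and Bhlhe41 log2 0.30 and log2 0.15, and the deubiquitinase gene Usp2 log2 -0.22.

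The opposite limb of the loop stood low at CT10. Of 7 genes, 3 fell and none rose, against 2.22% of all genes that fell, with a median of log2 -0.97. Arntl, which encodes BMAL1 (ENSMUSG00000055116, chromosome 7, 113207465 to 113314126, plus strand), was at 17.8, 21.2 and 25.9 CPM at CT10, against 83.0, 60.6 and 60.0 CPM at CT1. It fell by 1.65 (log2; SE 0.32; edgeR adjusted p = 0.0123) with no overlap, and passed in 4 of the 6 fits without 1 library, at the widest an adjusted p of 0.0995 without CT10 replicate 1. Its change was log2 -0.92 in the fit with the rod covariate (adjusted p = 0.0837). Nfil3, the D-box repressor gene, was at 6.35, 7.37 and 5.08 CPM at CT10, against 20.6, 16.6 and 16.5 CPM at CT1. It fell by 1.51 (log2; SE 0.24; edgeR adjusted p = 0.00253) and passed in every fit without 1 wild type library and in the fit with the rod covariate.

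Rorb, which encodes an activating nuclear receptor of this loop, was at 154, 144 and 216 CPM at CT10, against 368, 350 and 287 CPM at CT1, and fell by 0.97 (log2; SE 0.27; edgeR adjusted p = 0.0468). That call was lost in each of the 6 fits without 1 library, under RLE scaling (adjusted p = 0.0668), and in the fit with the rod covariate, where its change was log2 -0.36. Its relative Rora had log2 -0.49 and did not pass. Npas2 was at 1.26, 1.55 and 2.42 CPM at CT10, against 4.90, 6.16 and 4.67 CPM at CT1. These groups did not overlap, but the difference of log2 -1.59 (SE 0.80) had an edgeR adjusted p of 0.257 at this low level. Clock, the other partner of BMAL1, had log2 -0.48 (adjusted p = 0.0833), and Arntl2 log2 1.00 (adjusted p = 0.316).

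**Figure D3:**
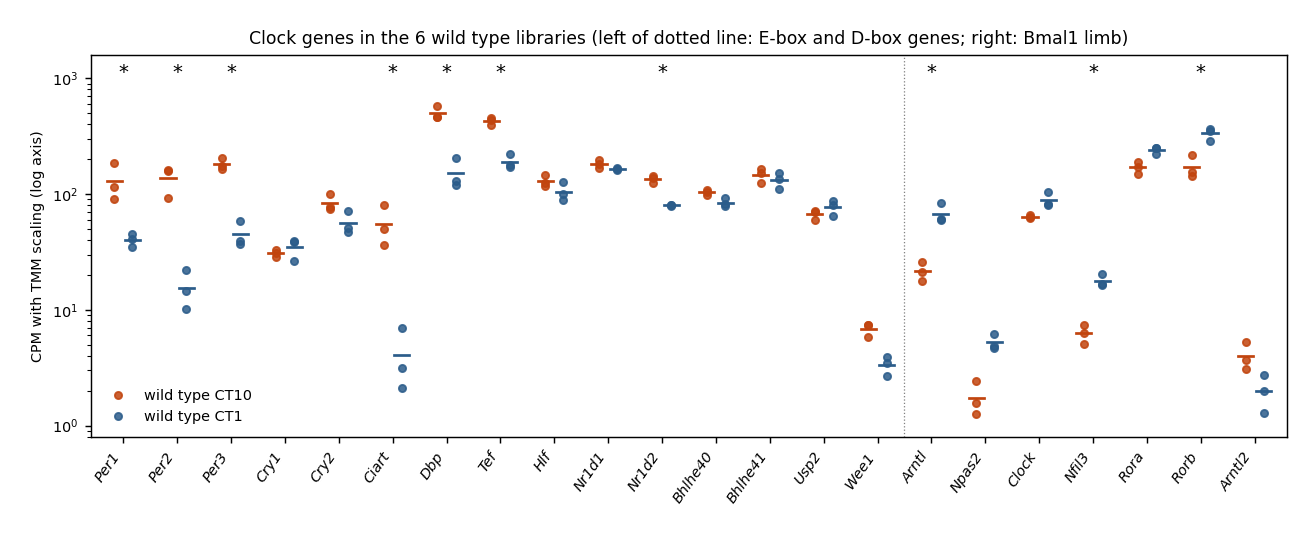
CPM of the clock genes (log axis) in the 3 wild type CT10 libraries, left of each pair, and the 3 CT1 libraries, right; bars are means and asterisks mark genes that passed edgeR's test. Of the 15 E-box and D-box genes, 7 rose at CT10, while Arntl, Nfil3 and Rorb lie lower.

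None of 15 genes for clock kinases, phosphatases and ubiquitin ligases passed, with a median of log2 -0.14. The casein kinase genes Csnk1d and Csnk1e had log2 0.04 and log2 0.12, and the ubiquitin ligase gene Fbxl21 log2 0.34. Between log2 -0.07 and log2 -0.39 lay Skp1a, Prkaa2, Csnk2a1, Btrc, Nono, Ppp1ca, Fbxw11, Gsk3b, Cul1 and Csnk2b, and Prkaa1 had log2 0.28. The largest difference was that of Timeless, at log2 1.10 with an edgeR adjusted p of 0.0962.

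The promoter sequences of clock genes were searched for the letters of these elements near the start. Windows from 250 bases before to 50 bases after each RefSeq start (GRCm38.p6) were found for 19 of the 22 genes in the E-box, D-box and Bmal1 limb lists, and both strands were searched. They had 25 windows in all, since some genes have several starts, and no window was found for Per2, Bhlhe40 and Wee1. The E-box CACGTG was found in 6 of the 25 windows, at 5 genes, against 7.15% of all 32851 windows. The D-box TTATGTAA or TTACGTAA was found in 1 window, against 1.06%, and the ROR response element in 1, against 0.384%. The related E-prime box CACGTT was found in 4 windows (against 4.68%) and the CRE TGACGTCA in 1 (against 1.79%). The 250 bases before the start are shown for the genes with an E-box or D-box that rose, with the elements in capitals. Ciart (chr3:95882229-95882478, minus strand) held 3 E-boxes and Per3 (chr4:151044666-151044915, minus strand) 2 D-boxes. Per1 (chr11:69098699-69098948, plus strand) held 1 E-box. Each of the 2 Tef starts (chr15:81802423-81802672 and chr15:81811164-81811413, plus strand) held 1. For Arntl, which fell, 30 bases around its ROR response element after the start are shown (chr7:113207528-113207557, plus strand).
Ciart: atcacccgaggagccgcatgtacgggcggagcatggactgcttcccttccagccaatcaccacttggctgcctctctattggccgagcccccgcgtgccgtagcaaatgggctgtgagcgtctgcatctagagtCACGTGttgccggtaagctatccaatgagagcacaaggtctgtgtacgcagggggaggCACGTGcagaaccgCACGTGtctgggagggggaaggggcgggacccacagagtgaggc
Per3: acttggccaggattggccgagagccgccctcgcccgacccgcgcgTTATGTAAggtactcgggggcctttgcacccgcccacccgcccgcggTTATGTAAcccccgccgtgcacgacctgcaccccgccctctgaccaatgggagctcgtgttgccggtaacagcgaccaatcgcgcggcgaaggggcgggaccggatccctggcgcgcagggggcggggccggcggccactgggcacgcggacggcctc
Per1: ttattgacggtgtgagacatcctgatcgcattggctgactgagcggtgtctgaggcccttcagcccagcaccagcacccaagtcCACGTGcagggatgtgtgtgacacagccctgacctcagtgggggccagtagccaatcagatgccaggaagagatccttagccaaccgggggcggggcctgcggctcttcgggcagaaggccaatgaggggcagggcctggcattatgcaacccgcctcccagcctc
Tef, first start: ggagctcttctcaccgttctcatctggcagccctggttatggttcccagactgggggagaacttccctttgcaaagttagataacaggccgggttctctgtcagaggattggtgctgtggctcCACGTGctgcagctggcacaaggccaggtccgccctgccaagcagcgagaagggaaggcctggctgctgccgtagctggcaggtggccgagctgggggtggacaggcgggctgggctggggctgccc
Tef, second start: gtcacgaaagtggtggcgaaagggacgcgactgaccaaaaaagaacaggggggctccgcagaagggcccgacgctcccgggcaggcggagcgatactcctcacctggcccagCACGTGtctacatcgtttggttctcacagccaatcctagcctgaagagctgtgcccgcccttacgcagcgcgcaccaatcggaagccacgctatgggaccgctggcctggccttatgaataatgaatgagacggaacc
Arntl: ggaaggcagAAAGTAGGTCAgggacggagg
Dbp, Nr1d2 and Nfil3 held none of these letters in their windows. An E-box was also found at Cry1 and Bhlhe41, which did not pass. A match of letters is a description and not a bound site.

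Set beside the means of CT19 and CT22 as well, Ciart, Per2 and Arntl stood apart at CT10. Ciart averaged 4.08 ± 2.56 CPM at CT1, 55.3 ± 22.3 CPM at CT10, 2.90 ± 0.31 CPM at CT19 and 2.46 ± 0.77 CPM at CT22 (SD, n = 3 each). Per2 averaged 15.5 ± 5.90, 137 ± 38.6, 25.3 ± 4.81 and 18.1 ± 8.72 CPM at those times, in the same order. Arntl averaged 67.9 ± 13.1 CPM at CT1, 21.6 ± 4.05 CPM at CT10, 56.1 ± 16.4 CPM at CT19 and 53.3 ± 15.0 CPM at CT22. Nr1d1 differed in order, since its means were 165 ± 4.25 and 182 ± 13.0 CPM at CT1 and CT10 and 85.7 ± 8.63 and 104 ± 5.82 CPM at CT19 and CT22. No test across the 4 times was made here.

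Of the 20 genes that passed without each of the 6 libraries, 14 lay outside the clock lists. Clca3a1 and Aqp1 were named by rules that use the calls and the size of the change, and the others after their values were seen. The choice of all 14 thus rests on these same data. Gria3, which encodes a subunit of AMPA glutamate receptors (ENSMUSG00000001986, chromosome X, 41400854 to 41678601, plus strand), was at 52.9, 44.7 and 48.2 CPM at CT10, against 15.0, 19.2 and 15.7 CPM at CT1. It rose by log2 1.55 (SE 0.23; edgeR adjusted p = 0.00163), and the replicates of each time lay close together. Aqp1, the water channel gene (ENSMUSG00000004655, chromosome 6, 55336432 to 55348555, plus strand), was at 68.5, 70.1 and 52.8 CPM at CT10, against 207, 156 and 110 CPM at CT1. It fell by 1.31 (log2; SE 0.20; edgeR adjusted p = 0.00253), and the CT1 libraries were the more spread. Car11, which encodes a carbonic anhydrase-related protein, was at 124.9, 65.4 and 122.4 CPM at CT10, against 31.2, 27.7 and 42.6 CPM at CT1, and rose by log2 1.62 (SE 0.27; adjusted p = 0.00513). Car11 (chromosome 7, 45699843 to 45704682) ends just before Dbp (45705088 to 45710203) on the same strand, and the counting settings were not given, so reads of these neighbours may not be fully separate.

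Clca3a1, of the chloride channel accessory family, was at 19.3, 12.5 and 12.2 CPM at CT10, against 4.14, 2.49 and 2.06 CPM at CT1, and rose by log2 2.35 (SE 0.40; adjusted p = 0.00513). The phosphodiesterase gene Gdpd2 (log2 1.79), the flavoprotein gene Aifm3 (log2 1.27), the phosphatase gene Ptpdc1 (log2 1.10) and Fam184a (log2 1.00) rose as well. So did the zinc finger gene Zfp467 (log2 0.99) and the galectin gene Lgals8 (log2 0.97). The genes that fell were the ubiquitin ligase gene Rnf144b (log2 -1.25), the small GTPase gene Rasl11a (log2 -1.29), Gprin1 (log2 -2.20) and the synaptic organiser gene Cbln2. Cbln2 had 0 counts in the 3 CT10 libraries and 106 in the 3 CT1 libraries, at least 39.9-fold lower at CT10 against a floor of 3 counts over the group. Of the 20 genes, 15 still passed in the fit with the rod covariate. Gprin1, Car11, Ptpdc1, Zfp467 and Lgals8 did not, at adjusted p of 0.0702, 0.0585, 0.057, 0.0702 and 0.0744.

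Among genes with at least 5 CPM on average and no overlap between times, the largest rises after Ciart and Per2 were those of low transcripts. The antisense transcript Tbx3os1 was at 9.76, 6.59 and 18.5 CPM at CT10, against 1.34, 1.14 and 1.56 CPM at CT1 (log2 3.11, SE 0.74; edgeR adjusted p = 0.0275). Gm49153 (log2 2.45), Gm49152 (log2 2.36) and the antisense gene A830036E02Rik (log2 2.18) followed. Without a stated strand setting, reads of an antisense gene and its partner cannot be told apart. Map3k6, a stress-activated kinase gene (log2 2.18), Etv4, an ETS transcription factor gene (log2 2.13), Cd300lf, a myeloid receptor gene (log2 2.00), and Sspo, which encodes SCO-spondin (log2 1.96), completed the 12 with Clca3a1 and Per3. Each of these 8 genes kept its call in only 1 or 2 of the 6 fits without 1 library and lost it with the rod score as a covariate.

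In several of the largest falls, 1 CT1 library stood far above the other 2. None of the 12 largest falls under the same conditions (at least 5 CPM and no overlap) passed in the fit with the rod covariate. Grm6, the glutamate receptor gene of ON bipolar cells, was at 1.07, 0.216 and 0 CPM at CT10, against 4.90, 26.3 and 1.60 CPM at CT1. Scrt1, a neuronal transcriptional repressor gene, was at 0.794, 0.776 and 1.68 CPM at CT10, against 4.33, 20.9 and 4.90 CPM at CT1. B3gat1, a glucuronyltransferase gene, was at 1.07, 1.03 and 1.39 CPM at CT10, against 4.14, 26.0 and 1.60 CPM at CT1. In all 3 the pooled CT1 replicate 2 was highest, which was also the library with the highest inner retina sum. Their changes were log2 -4.68, log2 -3.21 and log2 -3.18. Without CT1 replicate 2, their edgeR adjusted p were 0.0962, 0.234 and 0.258.

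Gad1, the GABA-synthesising enzyme gene, was at 0.654, 1.98 and 3.77 CPM at CT10, against 13.6, 27.3 and 6.74 CPM at CT1, and fell by 2.89 on the log2 scale. The neurofilament gene Nefh (log2 -2.58) and the vesicle priming gene Cadps (log2 -2.56) were again highest in CT1 replicate 2. Clstn3, a synaptic adhesion gene, was at 2.57, 3.88 and 4.95 CPM at CT10, against 24.3, 32.2 and 15.3 CPM at CT1 (log2 -2.65, and log2 -1.73 with the rod covariate). Pcp4l1 was at 21.0, 9.87 and 33.8 CPM at CT10, against 147, 91.2 and 144 CPM at CT1 (log2 -2.56, and log2 -1.46 with the rod covariate), and lost its call in all 6 fits without 1 library. Among the marker lists, 5 of 17 inner retina markers fell (Grm6, Calb1, Gad1, Calb2 and Cabp5), against 2.22% of all genes. So did 2 of 20 rod markers (Rcvrn at log2 -1.68 and Rp1 at log2 -1.22) and 2 of 9 cone markers (Cngb3 at log2 -2.66 and Gnat2 at log2 -1.02). None of these 9 markers passed in the fit with the rod covariate.

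CT1 replicate 1 was the highest library for the remaining large falls. Pvalb, a calcium-binding protein gene of fast muscle and some neurons, had 0 counts in the CT10 libraries and was at 27.3, 1.27 and 2.57 CPM at CT1, at least 193-fold lower at CT10 on the floor of 3 counts over the group. Myh4, a fast muscle myosin gene, had 2 counts at CT10 and 2067 at CT1, 1166-fold lower at CT10 with a 95% exact interval of 322 to 9632 for counting error alone. It was at 119.1 CPM in CT1 replicate 1 and at 2.57 and 6.23 CPM in CT1 replicates 2 and 3. The mitochondrial genes mt-Co2, mt-Co3 and mt-Atp6 were at 70.4, 55.5 and 72.4 CPM in CT1 replicate 1, at most 6.19 CPM in the other CT1 libraries and at most 5.04 CPM at CT10. Without that library, Myh4 had an edgeR adjusted p of 0.201 and the mitochondrial genes 0.757, 0.722 and 0.882. They were 3 of the 12 mitochondrial mRNAs tested, whose median was log2 0.00, and nuclear copies make their counts uncertain.

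Of 14 genes for the surface receptors and bridging ligands of outer segment uptake, 1 rose, against 1.23% of all genes, and 1 fell, against 2.22%. Their median was log2 -0.22. Mertk, the receptor kinase needed to engulf outer segments, was at 246, 237 and 263 CPM at CT10, against 130.6, 124.1 and 166 CPM at CT1 (log2 0.83, SE 0.20; edgeR adjusted p = 0.0289). Mfge8, which bridges outer segments to integrin, was at 72.6, 78.1 and 83.0 CPM at CT10, against 173, 124.7 and 110 CPM at CT1 (log2 -0.80, SE 0.19; edgeR adjusted p = 0.0245). The groups did not overlap for either gene, yet Mertk passed in 2 and Mfge8 in 1 of the 6 fits without 1 library, and neither passed with the rod score as a covariate (log2 0.43 and log2 -0.56). None of 22 engulfment signalling genes and none of 41 phagosome and lysosome genes passed. The most abundant of these, Ezr and Myo7a (a linker of membrane to actin and an unconventional myosin), had log2 0.13 and log2 0.51, and the lysosomal genes Psap and Cst3 each had log2 -0.10. Of 22 autophagy genes 1 fell, against 2.22% of all genes. This was Gabarapl1 of the LC3 family (log2 -0.98), which passed in 1 of the 6 fits. It had log2 -0.46 with the rod covariate, where it did not pass.

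Among 4 lists of genes of RPE function and identity, calls were made in that of ion and water transport. None of 12 visual cycle genes passed, and the most abundant, Ttr and Rgr (a retinol carrier and a retinal-binding opsin), had log2 0.09 and log2 0.42. None of 14 melanin genes passed, with a median of log2 -0.33 and with Dct at log2 -0.48 and Tyrp1 at log2 -0.81, both pigment enzymes. None of 10 RPE transcription factor genes passed, among them Otx2 (log2 0.41) and Six3 (log2 0.20). Of 20 transport genes, 2 rose, against 1.23% of all genes, and 1, Aqp1, fell, against 2.22%. The cation channel gene Trpm3 was at 1387, 1189 and 1466 CPM at CT10, against 715, 483 and 851 CPM at CT1 (log2 0.98, SE 0.25; edgeR adjusted p = 0.0347). The chloride channel gene Clcn2 had log2 0.75 (SE 0.21; adjusted p = 0.0456). Both groups were separate, but Trpm3 passed in 2 and Clcn2 in 1 of the 6 fits without 1 library, and neither passed with the rod covariate (log2 0.69 and log2 0.45).

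Vegfa, whose product the RPE secretes to maintain the choroidal vessels, was at 1253, 1046 and 1473 CPM at CT10, against 519, 505 and 680 CPM at CT1. It rose by log2 1.15 (SE 0.23; edgeR adjusted p = 0.0123), passed in 3 of the 6 fits and had an adjusted p of 0.0744 with the rod score as a covariate. It was 1 of 2 genes that rose among 20 linked to complement and macular degeneration, against 1.23% of all genes. The other, the complement factor gene Cfb, had 0 counts at CT1 and 69 at CT10, at least 20.4-fold higher on the same floor, and lost its call in all 6 fits and with the rod covariate. Of 21 adhesion genes, 3 fell, against 2.22% of all genes. Cdh3, which encodes P-cadherin, was at 99.5, 136 and 83.9 CPM at CT10, against 312, 246 and 249 CPM at CT1 (log2 -1.34, SE 0.27; edgeR adjusted p = 0.0123). It passed in 3 of the 6 fits and in the fit with the rod covariate (log2 -1.63; adjusted p = 0.0149). Cadm1 (log2 -0.92) and Nectin1 (log2 -0.67), both of the immunoglobulin superfamily, fell too and lost their calls under RLE scaling and in the fit with the rod covariate.

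Of 12 neuromodulator receptor genes tested, 1 fell, against 2.22% of all genes. This gene was Drd4, a dopamine receptor gene known to be strongly rhythmic in photoreceptors. It was at 15.7, 13.7 and 26.1 CPM at CT10, against 147, 75.9 and 71.2 CPM at CT1, a fall of 2.40 on the log2 scale (SE 0.39; edgeR adjusted p = 0.00541). Its change was log2 -1.54 in the fit with the rod covariate (adjusted p = 0.0112), and without CT10 replicate 1 it missed the threshold at 0.0579.

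The pathway list with the most falls was glycolysis and lactate handling. Of 31 genes, 7 fell, against 2.22% of all genes, and none rose, against 1.23%. The median was log2 -0.49, and in 18 every CT10 library lay below every CT1 library, against 16.5% of all genes. Slc16a3, a lactate exporter gene, was at 5.75, 6.59 and 6.71 CPM at CT10, against 25.5, 22.5 and 11.2 CPM at CT1 (log2 -1.63, SE 0.40; edgeR adjusted p = 0.0289). Ldha, which interconverts pyruvate and lactate, was at 256, 299 and 339 CPM at CT10, against 1042, 729 and 638 CPM at CT1 (log2 -1.43, SE 0.36; edgeR adjusted p = 0.0344). The hexokinase gene Hk2 was at 218, 242 and 310 CPM at CT10, against 798, 679 and 553 CPM at CT1 (log2 -1.40), and the phosphoglycerate kinase gene Pgk1 had log2 -1.21. Pgam1, Tpi1 and Hkdc1 also fell (log2 -1.15, log2 -0.89 and log2 -0.76). The groups were well apart, but with the rod score as a covariate none of the 31 passed (median log2 -0.33), and Ldha and Hk2 were at log2 -0.46 and log2 -0.49. Under RLE scaling 4 of the 31 fell. Slc16a3, Ldha, Hk2 and Pgk1 each passed in 1 of the 6 fits without 1 library, and none of the 31 passed in all 6. For Pgam1, Tpi1 and Hkdc1 the number of such fits is not given here.

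In other metabolic lists few single genes passed, set against 2.22% of all genes that fell and 1.23% that rose. One of 74 nuclear-encoded respiratory chain genes fell (Cox5a, log2 -0.79). That call was lost under RLE scaling and in each of the 6 fits without 1 wild type library. In 36 of the 74 every CT10 library lay below every CT1 library, against 16.5% of all genes, and the median was log2 -0.22, or log2 -0.09 with the rod covariate. Of 27 fatty acid and ketone genes, the ketone enzyme gene Bdh1 fell (log2 -0.85). Of 31 cholesterol genes, the synthesis gene Pmvk fell (log2 -0.84) and the sterol hydroxylase gene Cyp27a1 rose (log2 0.88). None of 79 cytosolic ribosomal protein genes passed (median log2 -0.16). The most abundant, Rpl4 and Rpl8, each had log2 -0.46, and log2 0.12 and log2 0.00 with the rod score as a covariate. None of these single calls held in more than 2 of the 6 fits or with the rod covariate, where Cox5a had log2 -0.45, Bdh1 log2 -0.55, Pmvk log2 -0.53 and Cyp27a1 log2 0.75.

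Stress and signal-response lists held a few falls. Of 25 immediate early genes, 3 fell, the AP-1 genes Fos (log2 -1.84), Junb (log2 -1.02) and Jun (log2 -0.79), against 2.22% of all genes. With the rod covariate these 3 were at log2 -1.42, log2 -1.15 and log2 -0.83 and did not pass. Among the 6 fits without 1 wild type library, Fos and Jun passed only in that without CT1 replicate 3, and Junb in none. Of 19 heat shock genes, 3 fell, against 2.22% of all genes, the chaperone genes Hspa1a (log2 -1.49), Hsph1 (log2 -0.88) and Hsp90aa1 (log2 -0.71), and in 12 every CT10 library lay below every CT1 library, against 16.5% of all genes. Hsph1 passed in 3 of the 6 fits without 1 library, and Hspa1a only in that without CT1 replicate 3. Hsp90aa1 passed in none of them and lost its call under RLE scaling. With the rod covariate the 3 were at log2 -0.64, log2 -0.87 and log2 -0.46, and none of the 19 passed. The cold-inducible RNA-binding genes Cirbp (log2 0.59) and Rbm3 (log2 0.62) did not pass, though their groups did not overlap, and Rbm3 passed under RLE scaling. Of 19 glucocorticoid-induced genes 1 fell, against 2.22% of all genes. This was the mTOR inhibitor gene Ddit4 (log2 -0.56), and its call was lost under RLE scaling and with the rod covariate (log2 -0.40). Of the 6 fits without 1 library, Ddit4 passed only in that without CT1 replicate 3. None of 21 endoplasmic reticulum stress genes passed (median log2 -0.32; Calr log2 -0.48 and Hsp90b1 log2 -0.39, both chaperones). None of 28 antioxidant genes did (median log2 -0.19; Gpx4 log2 -0.13 and Cat log2 -0.08, both peroxide-removing enzymes).

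**Figure D4:**
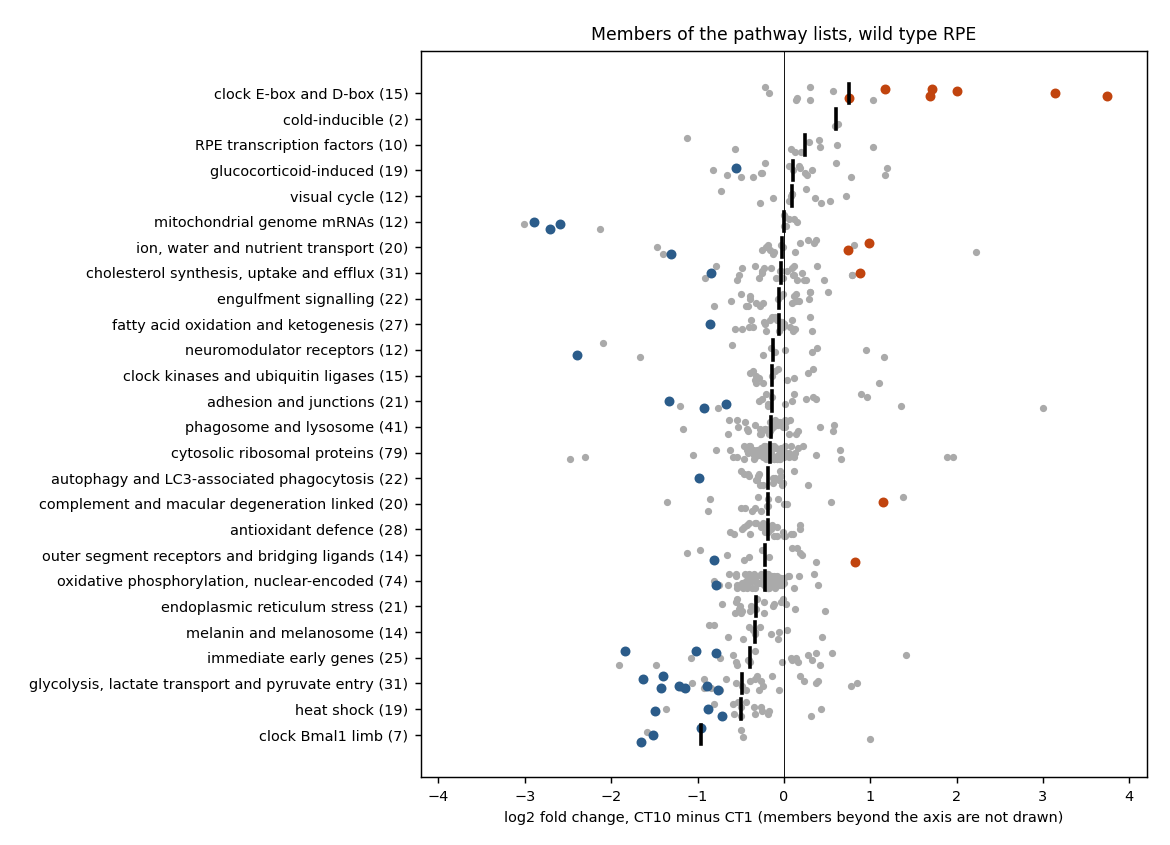
Log2 fold change, CT10 minus CT1, of each tested member of the pathway lists, with the number tested in brackets; orange members rose, blue members fell, grey members did not pass, and black bars are list medians. The E-box and D-box clock genes reach log2 3.74, and glycolysis holds 7 blue points.

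The same 2 times were also set beside each other in the libraries labelled Per1-/-Per2Brdm1. There the targeted genes were still counted. Per1 was at 76.9, 117.7 and 93.0 CPM at CT10, against 113.6, 127.9 and 252 CPM at CT1. Per2 was at 93.1, 103 and 93.9 CPM at CT10, against 110, 124.7 and 153 CPM at CT1. Counts summed over a gene do not show a missing part, so they do not check the labels. Between CT10 and CT1 in these mutant libraries, 0 of 20275 genes passed in edgeR's test, with 2802 at an unadjusted p under 0.05. DESeq2 called 29 higher and 86 lower among the 7302 genes to which it gave an adjusted p. Without the filter on low counts edgeR called 572 of 32680 genes, of which 205 were higher and 367 lower.

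The change in mutant libraries minus the change in wild type libraries differed from 0 for 2359 genes (11.6%) in edgeR's test. It was positive for 1419 genes (7%) and negative for 940 (4.64%). The test uses the same wild type libraries as the comparison above. Rod markers ran the other way in mutant libraries, with sums of 35523 to 57325 CPM at CT10 and 28662 to 34149 CPM at CT1. The fit with the rod covariate called 13 genes. Under RLE scaling 867 of 2039 were positive. Leaving out 1 library gave 486 genes without mutant CT10 replicate 3, 535 without mutant CT1 replicate 3, 639 without wild type CT1 replicate 1 and 737 without wild type CT10 replicate 1. It gave 1014, 1067 and 1169 without wild type CT1 replicate 2, mutant CT10 replicate 1 and wild type CT10 replicate 3.

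Ciart was at 24.6, 32.3 and 26.4 CPM in mutant libraries of CT10 and 20.3, 38.9 and 56.7 CPM in those of CT1, a change of log2 -0.48, against log2 3.74 in wild type. The difference was log2 -4.22 (SE 0.55; edgeR adjusted p = 0.000587). Per3 changed by log2 -0.86 in mutant and log2 2.00 in wild type libraries, a difference of log2 -2.87 (SE 0.37; edgeR adjusted p = 0.000485). Dbp was at 397, 367 and 431 CPM in mutant libraries of CT10 and 359, 408 and 370 CPM in those of CT1, and its difference was log2 -1.64 (SE 0.30; edgeR adjusted p = 0.00589). Arntl was at 22.8, 27.1 and 30.5 CPM in mutant libraries of CT10 and 8.73, 20.8 and 14.9 CPM in those of CT1, so its groups were apart in the other direction. Its difference was log2 2.51 (SE 0.45; edgeR adjusted p = 0.00589). Gria3 changed by log2 -0.05 and Aqp1 by log2 0.24 in mutant libraries, with differences of log2 -1.60 and log2 1.55 that passed. The differences given for single genes here are from the fit without the rod covariate. With it, 13 of all genes passed. Nr1d1 changed by log2 0.10 in mutant and log2 0.14 in wild type libraries, and Mertk by log2 -0.02 in mutant and log2 0.83 in wild type libraries (adjusted p of the difference 0.0522).

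**Figure D5:**
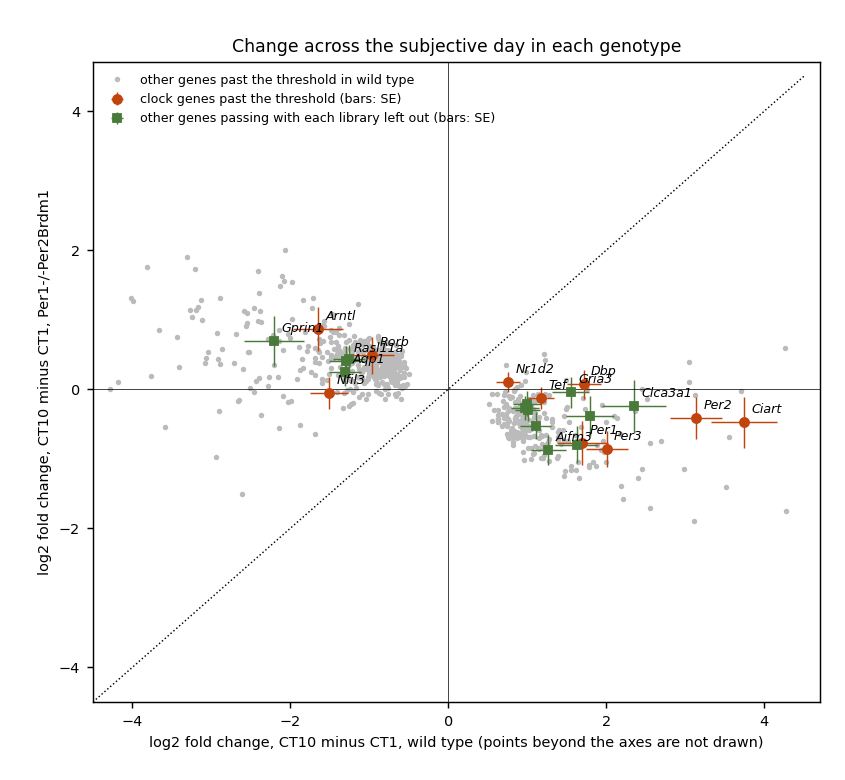
Log2 fold change between CT10 and CT1 in Per1-/-Per2Brdm1 libraries (vertical axis) against that in wild type libraries (horizontal axis) for the genes that passed in wild type; bars are SE and the dotted line marks equal change. Ciart and Per2 lie at log2 3.74 and log2 3.14 on the wild type axis and at log2 -0.48 and log2 -0.42 on the other.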

How the data were processed

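RNA-seq read counts per gene were deposited by the authors as raw whole-number counts with no normalization. The tools named, per the submitters' processing notes, are HTSeq 0.11, HISAT2 2.1.0, Trimmomatic 0.32 and Cufflinks, with the build GRCm38.p6. What each did, the strand setting and the annotation release are not given in the sources used here, so overlapping and antisense genes, and genes with near-identical copies, are uncertain. Gene coordinates are from GENCODE vM21 on GRCm38, and promoter windows from RefSeq on GRCm38.p6.

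Counts of all 24 libraries entered one edgeR 4.0.16 quasi-likelihood fit (R 4.3.3; robust, TMM scaling, 8 group means, 16 residual degrees of freedom) after filterByExpr with a minimum count of 10, which left 20275 genes. CPM values use the TMM factors. The threshold was an adjusted p of 0.05 (Benjamini-Hochberg, all genes tested), and adjusted p-values are from edgeR unless named otherwise. All 6 pairs of replicates differed by more than sampling noise (chi-square divided by its degrees of freedom was at least 44.7). Alternatives were RLE scaling, other filters, DESeq2 1.42.0, a fit without robust estimation, a rod score covariate, fewer groups and each library left out. The pipeline was tested on simulated data.

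Genes were named by rule. The rule took all clock list members, the 12 largest rises and falls that passed, averaged at least 5 CPM and did not overlap, and up to 4 called or the 2 most abundant members per other list. For the genotype difference it took up to 6 genes a direction. Members, lists and rules were chosen with earlier results of these data known. No list was tested as a set, and 2 list members are not reported here.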

Additional observations from a re-analysis of the deposited data

Results flagged for a closer look

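For the genes named here, the change between CT10 and CT1 in Per1-/-Per2Brdm1 libraries minus that in wild type libraries was tested in edgeR's quasi-likelihood fit, and 75 had an adjusted p below 0.05 by Benjamini-Hochberg (11.6% of all genes did). The test shares the wild type libraries with the comparison in which the genes were named, so it is not separate evidence. Up to 6 genes a direction were also named because they passed this same test, so their passing was fixed in advance. Other genes were named after their values were seen. The 75 are thus not a share to compare with that of all genes. In the fit with the rod covariate, 13 of all genes did.

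The mutant change was the lower for Cfb (log2 -10.31), Tbx3os1 (log2 -5.01), Ciart (log2 -4.22), Gm49153 (log2 -3.60), A830036E02Rik (log2 -3.58), Per2 (log2 -3.55), Gm44891 (log2 -3.28) and Per3 (log2 -2.87). It was lower, by less, for Map3k6 (log2 -2.83), Sspo (log2 -2.70), Gm49152 (log2 -2.68), Clca3a1 (log2 -2.59), Etv4 (log2 -2.55), Per1 (log2 -2.48), Cd300lf (log2 -2.47) and Car11 (log2 -2.42). The same direction held for Gdpd2 (log2 -2.18), Aifm3 (log2 -2.14), Dbp (log2 -1.64), Ptpdc1 (log2 -1.63), Gria3 (log2 -1.60), Vegfa (log2 -1.55), Trpm3 (log2 -1.38) and Fam184a (log2 -1.30). Smaller negative differences were those of Tef (log2 -1.30), Clcn2 (log2 -1.28), Myo7a (log2 -1.25), Lgals8 (log2 -1.24), Zfp467 (log2 -1.20), Cyp27a1 (log2 -1.02), Rbm3 (log2 -0.89) and Nr1d2 (log2 -0.65).

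The mutant change was the higher for Csnk2b (log2 0.78), Ddit4 (log2 0.79), Mfge8 (log2 0.80), Ppp1ca (log2 0.81), Hsph1 (log2 0.82), Jun (log2 1.02), Rpl4 (log2 1.11), Rpl8 (log2 1.13) and Hsp90aa1 (log2 1.22). It was higher, by more, for Junb (log2 1.39), Rorb (log2 1.45), Nfil3 (log2 1.45), Pmvk (log2 1.46), Cox5a (log2 1.47), Cdh3 (log2 1.49), Gabarapl1 (log2 1.51), Bdh1 (log2 1.55) and Aqp1 (log2 1.55). Larger positive differences were those of Pgk1 (log2 1.67), Rnf144b (log2 1.68), Rasl11a (log2 1.70), Hspa1a (log2 1.80), Hk2 (log2 1.98), Slc16a3 (log2 2.01), Fos (log2 2.15), Ldha (log2 2.24) and Clstn3 (log2 2.50). Positive differences above these were those of Arntl (log2 2.51), Drd4 (log2 2.57), mt-Co2 (log2 2.88), Gprin1 (log2 2.90), mt-Atp6 (log2 3.08), mt-Co3 (log2 3.25), Pcp4l1 (log2 3.46), Cadps (log2 3.50) and Nefh (log2 3.71). At the top of this range were Gad1 (log2 4.21), B3gat1 (log2 4.36), Nefl (log2 4.72), Scrt1 (log2 4.94), Grm6 (log2 5.28), Pvalb (log2 9.01) and Cbln2 (log2 9.10). The fitted values of Cfb, Pvalb and Cbln2 depend on the prior count, since a wild type group was at 0 counts.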

How the results depend on the processing

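Under RLE scaling 565 genes passed between CT10 and CT1, with a filter at 5 CPM 909, and without robust estimation 686. The count moved to 1797 with no filter on low counts, 42 with the rod score as a covariate, 1399 in the 12 wild type libraries, 1617 in the 6 compared and 1696 in DESeq2, which left genes with no adjusted p out. It ranged from 37 to 759 with 1 library left out. Without a mutant library, a choice made after seeing the data, it was 407, 439 and 411 (CT10 replicates 1 to 3) and 508, 391 and 583 (CT1 replicates 1 to 3), with more genes tested. Further counts were also chosen after seeing the data. The 20 genes that passed in all 6 fits are one, and the 612 called genes with at least 5 CPM and no overlap the other. The share higher was 35.66%, but 52.21% under RLE and 63.7% with the 5 CPM filter. The genotype difference gave 2039 to 3079 genes except with the rod score (13), and 486 to 2217 with 1 library left out. The cause of these moves was not tested.

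Signs changed only for genes that had not passed. With the rod score as a covariate, Cry1 (log2 0.32), Usp2 (0.30), Rpl4 (0.12), Rpl8 (0.00012), Csnk1d (-0.15), Ezr (-0.28), Rgr (-0.10), Six3 (-0.14) and Ttr (-0.25) turned. With the 5 CPM filter, Cat (log2 0.037), Cst3 (0.024), Prkaa2 (0.011), Psap (0.024) and Skp1a (0.046) turned. With 1 library left out, the log2 change ran from -0.23 to 0.11 for Cat, -0.17 to 0.049 for Cst3, -0.20 to 0.71 for Fbxl21, -0.23 to 0.051 for Gpx4, -0.19 to 0.045 for Prkaa2, -0.18 to 0.074 for Psap, -0.19 to 0.033 for Skp1a and -0.036 to 0.26 for Ttr.

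No paired analysis was possible because the numbers in the labels of the CT10 and CT1 libraries share only 1 number. The labels do not say that these numbers stand for animals, so the shared number does not show a pair. Npas2, at most 6.16 CPM in these libraries, did not pass although its groups did not overlap.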
